A study of Homo sapiens with 12 samples.

Results

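The liver makes most of the proteins that circulate in blood plasma, and 46 human genes for such secreted proteins were examined for PAR-CLIP clusters in HepG2, a hepatocellular carcinoma cell line. The genes were given as a list: carriers of lipids, metals and hormones, serpins, coagulation factors, complement components, inter-alpha-trypsin inhibitor heavy chains, fetuins, apolipoproteins, and the matrix or cell-surface proteins FN1, VTN, GPC3 and SPP1. They are 46 of the 20033 protein-coding genes of GENCODE release 44 outside the mitochondrial chromosome. A cluster, that is, an interval of crosslinked sequence called in 1 library, was given to a gene when its midpoint lay in that gene on the same strand. By this rule the genes held 717 of the 72014 clusters in protein-coding genes, and the whole series held 102250 clusters.

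The study compared proteins that read and write N7-methylguanosine (m7G) inside mRNA. IGF2BP1, IGF2BP2 and IGF2BP3 were precipitated as readers, and METTL1 and WDR4 as the catalytic and RNA-binding subunits of the writer complex. There were 12 libraries: 2 each for IGF2BP1, IGF2BP2, METTL1 and WDR4, and 4 for IGF2BP3, of which 2 carried the label bio2. All 12 came from HepG2 cells with no knockdown or drug named in the labels, fed 4-thiouridine, crosslinked under ultraviolet light, treated with RNase T1 and precipitated with an antibody. HepG2 is 1 tumour-derived line, so no library stood for normal hepatocytes and no library was an input or mock control. The 8 IGF2BP libraries are called reader libraries below and the 4 METTL1 and WDR4 libraries writer libraries.

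Plasma protein mRNAs are among the most abundant messages of hepatocytes. They are translated at the endoplasmic reticulum and begin with a signal peptide that sends the protein into the secretory pathway. IGF2BPs contact mRNA through RNA recognition motifs and KH domains and govern the stability, location and translation of their targets, while METTL1 with WDR4 is best known for methylating tRNAs. No RNA level was measured in these files. A gene with few clusters may be little bound or little transcribed, and these cannot be told apart here.

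Libraries held between 4581 and 15701 clusters, and between 3181 and 11877 of these lay in protein-coding genes. The files listed no reads, so the depth behind a cluster was unknown. The bio2 libraries stood apart from the other IGF2BP3 libraries by narrower clusters, with medians of 34 and 35 nt against 41 nt in both others, and the main values that rest on them are given with and without them. Of the markers for HepG2 and hepatocytes, ALB had 34 clusters, AFP 19 and APOA1 1, and TTR had none. Among markers of other liver cell types, CD68 (macrophages) and KRT19 (cholangiocytes) had 1 cluster each, and CD163, PTPRC, PECAM1, VWF, CDH5, COL1A1, COL1A2, DCN and KRT7 had none.

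The central bases of 1 of the most widely shared exonic sites are given here for 10 genes, to show what a recurrent site in these transcripts looks like. For all of these genes but RBP4, other sites of the same gene held most of its clusters. A site is the union of overlapping clusters of different libraries. Bases are from hg38 on the transcript's strand, 5' to 3', and capitals mark CATA, CATC or CATT, the DNA spelling of the CAU-type element tied to IGF2BP binding.
FGB, 3' UTR: tctttCATACATTatattcctctaaaactc
SERPINA1, 3' UTR: gcctctcgctcctcaacccctcccctccat
FN1, 5' UTR: cttctgtccctccacccgtccccttcccca
GPC3, 3' UTR: tttctctctcactccctccctttctatcgt
TFPI, 3' UTR: aacaacctcaacaacctcaacaacctccaa
ALB, CDS: atttcccttctttttctctttagctcggct
FGA, 3' UTR: ccttgCATTtccttcttaactctctgttac
FGG, CDS: ataaaagcaatccaactcacttataatcct
RBP4, 3' UTR: ctcccCATCttccctcagttccCATAaaac
ITIH2, CDS: agtcacggacgtcactcaaaacaatttcca
The capitals appear in FGB, FGA and RBP4. The SERPINA1, FN1 and GPC3 stretches are made mostly of C and T, and the TFPI stretch repeats AACAACCTC. The stretches lie at chr4:154570719-154570748 (plus strand), chr14:94378417-94378446, chr2:215435940-215435969, chrX:133535796-133535825 and chr2:187465841-187465870 (minus strand) for the first 5 genes, in that order. For the other 5 they lie at chr4:73404346-73404375 (plus), chr4:154585427-154585456 (minus), chr4:154612037-154612066 (minus), chr10:93591956-93591985 (minus) and chr10:7731876-7731905 (plus).

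The 46 listed genes carried clusters more often than protein-coding genes at large. A cluster was present in 36 of the 46 genes (78.3%) against 44.4% of all protein-coding genes. An exonic cluster, outside introns, was present in 29 (63.0% against 31.0%). In coding sequence (CDS) 22 genes (47.8%) had a cluster against 12.9%. In 3' UTRs 20 genes (43.5%) had one against 22.0%, in 5' UTRs 8 genes (17.4%) against 3.36%, and in introns 22 genes (47.8%) against 29.3%. No test was run on the list. Without the bio2 libraries 32 listed genes had a cluster and 26 an exonic one. The matching shares of all protein-coding genes were not counted, so these counts stand without a background.

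Breadth across libraries was uneven. FN1, SERPINA1, FGB and SERPINA3 had an exonic cluster in all 12 libraries (4 genes, 8.70% against 1.12% of all genes), and 12 genes had one in at least 8 libraries (26.1% against 6.54%). These 12 were FN1, SERPINA1, FGB, SERPINA3, GPC3, ALB, FGG, TFPI, FGA, C3, ITIH2 and RBP4. Without the bio2 libraries 7 genes (15.2% against 4.29% of all genes) had one in at least 8 of the other 10 libraries, and TFPI, FGA, C3, ITIH2 and RBP4 were no longer among them. The bar stayed at 8 while 6 reader libraries were left. TFPI, FGA and ITIH2 had exonic clusters in 1 writer library each and RBP4 in none, so their loss was fixed by the bar. At the other end, 10 genes had no cluster in any library: TTR (transthyretin), HPX (hemopexin), SERPING1 (C1 inhibitor), F10 and F12 (coagulation factors), CFB (complement factor B), ITIH1, ITIH4, FETUB and APOM. A further 7 genes (15.2% against 13.4% of all genes) had intronic clusters alone, namely SERPINC1, F2, PLG, PROS1, PROC, C5 and AMBP. A list of called clusters sets no limit on binding below the caller's threshold.

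**Figure D1:**
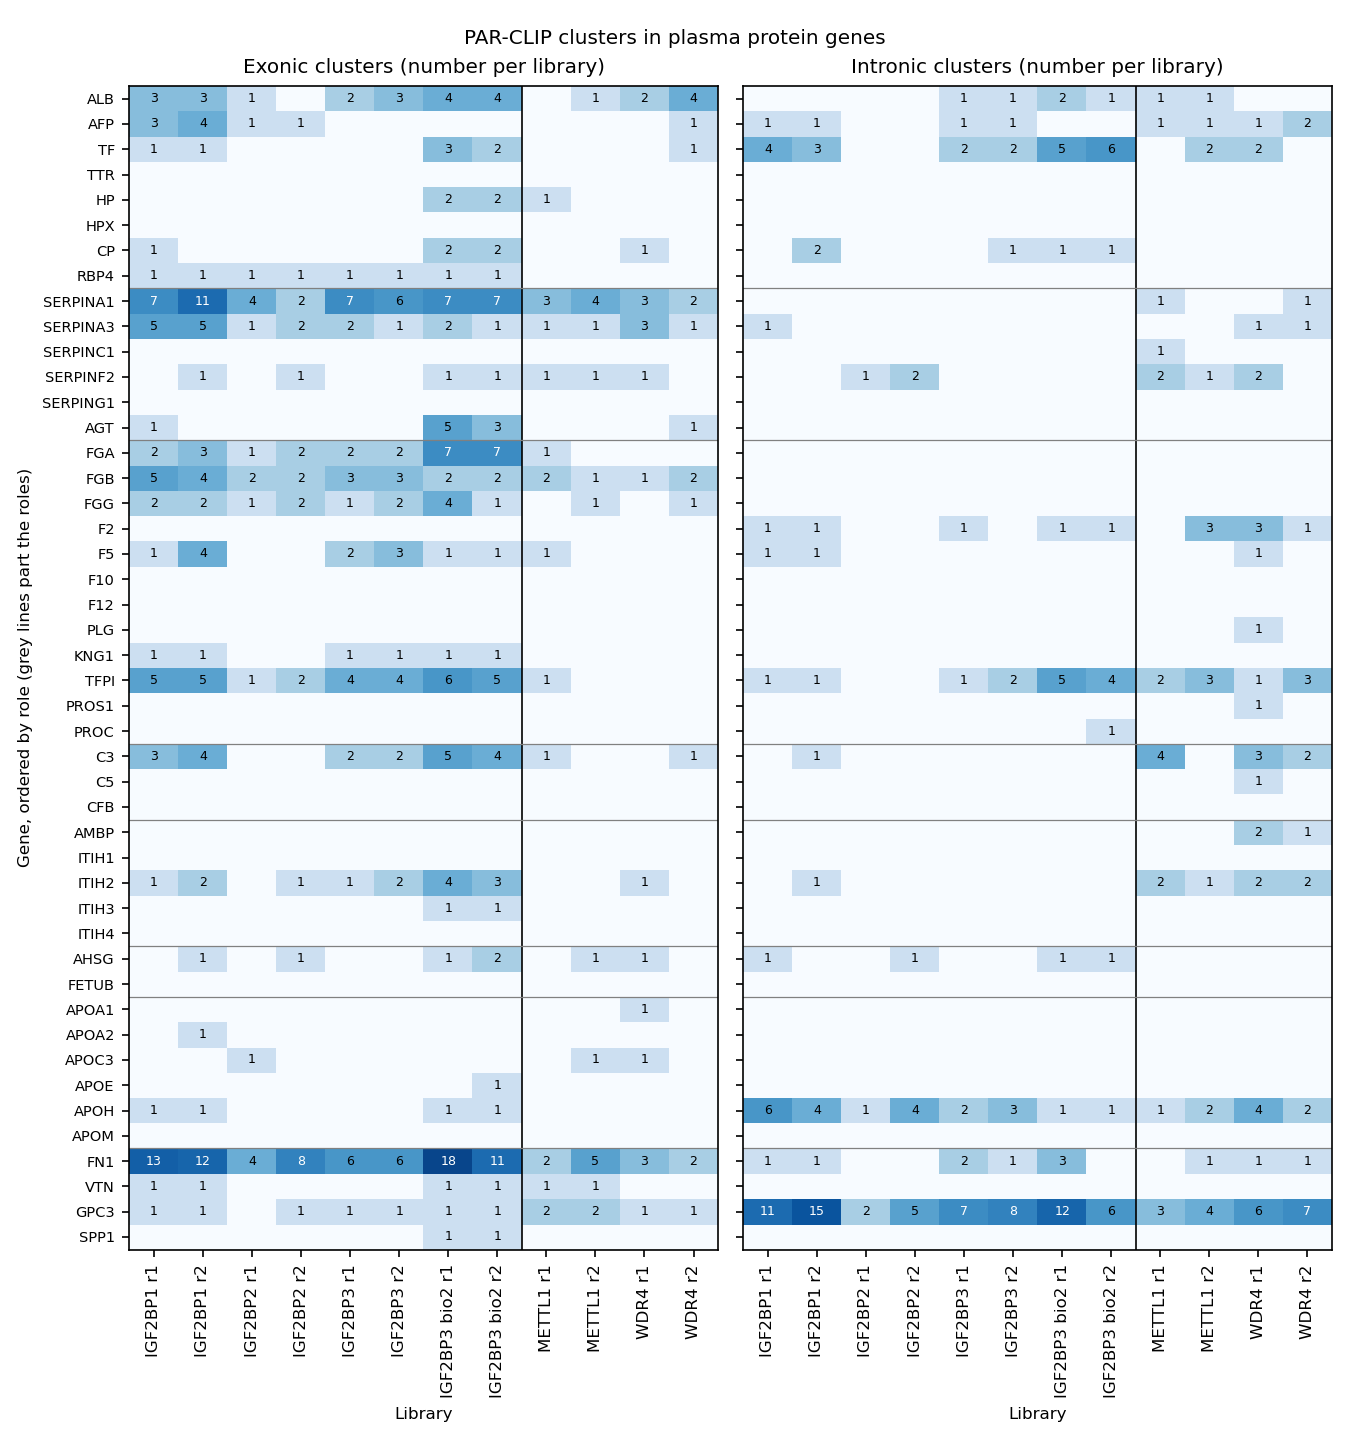
Number of exonic (left) and intronic (right) clusters of each of the 46 genes (rows, ordered by role) in each of the 12 libraries (columns; r1 and r2 are replicates, the black line parts reader from writer libraries). Colour follows log2(number + 1); empty cells are 0. FN1 has the most exonic clusters, up to 18 in a library, GPC3 the most intronic ones, up to 15, and 10 rows are empty in both panels.

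By protein, a reproducible exonic site, present in at least 2 libraries of that protein, was found in 24 genes for IGF2BP3 (52.2% against 14.2% of all genes) and in 18 for IGF2BP1 (39.1% against 16.0%). IGF2BP2 had 8 such genes (17.4% against 5.92%). METTL1 and WDR4 had 6 of the 46 each, against 2.92% and 3.33% of all genes. IGF2BP3 had 4 libraries and the others 2, so the proteins' own counts do not compare directly. Without bio2, IGF2BP3 had such a site in 14 genes (30.4%, against 2013 of all 20033 genes, 10.0%). That was fewer genes than for IGF2BP1, whose share over all genes was also higher, at 16.0%. The IGF2BP1 libraries held 14502 and 15701 clusters and these 2 IGF2BP3 libraries 6467 and 6831. The 10 genes that then dropped out were TF, HP, CP, AGT, SERPINF2, ITIH3, AHSG, APOH, VTN and SPP1. Some protein had a reproducible exonic site in 25 genes (54.3% against 19.4%), and all 5 had one in 3 genes (6.52% against 1.47%). These were 19 (41.3% against 17.2%) and 3 genes without bio2.

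**Figure D2:**
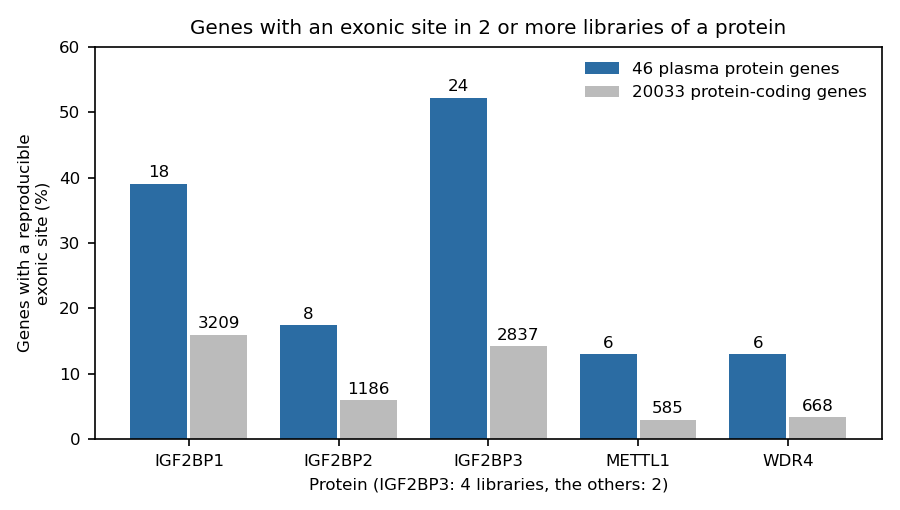
Percent of genes (y axis) with an exonic site in 2 or more libraries of a protein (x axis), for the 46 plasma protein genes (blue) and all 20033 protein-coding genes (grey); numbers above the bars count genes. The blue bar is higher than the grey for each protein, from 6 of 46 genes against 2.92% for METTL1 to 52.2% against 14.2% for IGF2BP3, whose 24 genes became 14 without the bio2 libraries.

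Among carrier proteins, 6 of 8 genes had exonic clusters. ALB encodes albumin, the most abundant plasma protein. Its exonic clusters numbered 3 and 3 in the IGF2BP1 libraries, 1 and 0 for IGF2BP2, 2 and 3 for IGF2BP3, 4 and 4 for bio2, 0 and 1 for METTL1, and 2 and 4 for WDR4, so reader and writer libraries overlapped. The shown site in canonical exon 1 (chr4:73404338-73404383) lay 33 nt into the coding sequence and was found in 6 reader and 2 writer libraries. The central 20 nt of its clusters had a median of 2.5 occurrences in the genome. Another ALB site, in the 3' UTR (chr4:73421168-73421223), was also found in 6 reader and 2 writer libraries and occurred once.

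RBP4, the carrier of retinol, was found with every reader and no writer library. All 8 reader libraries had 1 cluster and all 4 writer libraries had none, and all 8 clusters fell in 1 site of the 3' UTR (chr10:93591939-93592001, exon 6 of 6), centred 108 nt into a 3' UTR of 384 nt. The region was covered by 3 proteins in at least 2 libraries each. AFP, the fetal counterpart of albumin, had 10 exonic clusters in 5 libraries, 7 of them in the IGF2BP1 libraries. TF (transferrin, the iron carrier) had 34 clusters, of which 26 were intronic. HP (haptoglobin, which binds free haemoglobin) had its 4 CDS clusters in the bio2 libraries alone, at 2 sites whose centres occur at 2 places in the genome, so a related copy may have contributed reads. CP (ceruloplasmin, the copper carrier) had exonic clusters in 4 libraries.

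Of the 6 serpins, which are mostly inhibitors of serine proteases, 4 had exonic clusters. SERPINA1 encodes alpha-1-antitrypsin, the main inhibitor of neutrophil elastase. It had 7 and 11 exonic clusters in the IGF2BP1 libraries, 4 and 2 for IGF2BP2, 7 and 6 for IGF2BP3, 7 and 7 for bio2, 3 and 4 for METTL1, and 3 and 2 for WDR4. Every library therefore had at least 2. Its 3' UTR carried 40 clusters at 7 sites and its CDS 23 clusters at 9 sites. The CDS clusters came from 7 reader libraries and 1 writer library, whereas the 3' UTR clusters came from all 12.

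A pair of SERPINA1 3' UTR sites was reproducible for all 5 proteins. One was the site shown above (chr14:94378396-94378466), just after the stop codon and present in 12 of 12 libraries, and the other was at chr14:94377828-94377865, in 10 libraries. Sites at chr14:94376982-94377009 (3' UTR, 6 reader libraries) and chr14:94382955-94383033 (CDS, exon 2 of 5, 6 reader libraries) had no writer cluster. SERPINA3 (alpha-1-antichymotrypsin, an acute-phase serpin) had 5 and 5 exonic clusters in the IGF2BP1 libraries, 1 to 2 in each of the other 6 reader libraries, and 1, 1, 3 and 1 in the writer libraries. Its sites also lie within ENSG00000273259, a protein-coding gene annotated on the same strand, and the 2 cannot be told apart.

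AGT (angiotensinogen, the source of angiotensin peptides) had 8 of its 10 clusters in the bio2 libraries. SERPINF2 (alpha-2-antiplasmin) had 7 clusters in its 3' UTR, from 4 reader and 3 writer libraries. Of its 15 clusters, introns included, 11 had a multi-copy centre and cannot be placed with certainty. Among its 8 intronic clusters, 1 reader and 1 writer cluster were single-copy. SERPINC1 (antithrombin) had 1 intronic cluster and SERPING1 none.

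The 3 fibrinogen chains, which assemble into the clot precursor and lie side by side on chromosome 4, all carried clusters but in different places. FGB, the beta chain, had 5 and 4 clusters in the IGF2BP1 libraries, 2 and 2 for IGF2BP2, 3 and 3 for IGF2BP3, 2 and 2 for bio2, 2 and 1 for METTL1, and 1 and 2 for WDR4. Of these 29 clusters, 28 lay in the 3' UTR. The site shown above (chr4:154570714-154570753) was present in all 12 libraries, 86 nt into a 3' UTR of 2160 nt. The central 20 nt of its clusters had a median of 2 occurrences in the genome. A single-copy site further along (chr4:154571916-154571965) was present in 8 reader libraries and 1 METTL1 library.

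FGA, the alpha chain, had 2 and 3 clusters for IGF2BP1, 1 and 2 for IGF2BP2, 2 and 2 for IGF2BP3, 7 and 7 for bio2, 1 and 0 for METTL1, and 0 and 0 for WDR4. Its 3' UTR held 23 clusters at 6 sites, all from reader libraries, and the 1 METTL1 cluster lay in the CDS. The site shown above (chr4:154585424-154585458) was in all 8 reader libraries, 56 nt into the canonical 3' UTR of 222 nt. Another 4 of the 6 sites lay in a 3' UTR outside the canonical exons, which belongs to a different annotated transcript of FGA.

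FGG, the gamma chain, differed in region. It had 2 and 2 clusters for IGF2BP1, 1 and 2 for IGF2BP2, 1 and 2 for IGF2BP3, 4 and 1 for bio2, 0 and 1 for METTL1, and 0 and 1 for WDR4. Its 14 CDS clusters came from the 8 reader libraries alone, and 8 of them, 1 in each, fell at chr4:154612036-154612066 in exon 3 of 9. The 2 writer clusters were in the 3' UTR.

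Other coagulation genes ranged from many exonic clusters to a single intronic one. TFPI, which inhibits the tissue factor pathway that starts clotting, had 5 and 5 exonic clusters for IGF2BP1, 1 and 2 for IGF2BP2, 4 and 4 for IGF2BP3, 6 and 5 for bio2, 1 and 0 for METTL1, and 0 and 0 for WDR4. Of its 33 exonic clusters 32 lay in the 3' UTR, at 7 sites, and none in the CDS. It also had 23 intronic clusters at 13 sites. The repeat-bearing site shown above (chr2:187465825-187465886) was in all 8 reader libraries and 1 METTL1 library.

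F5 (factor V, the cofactor in prothrombin activation) had 12 reader clusters and 1 writer cluster in exons. Its CDS site at chr1:169540592-169540619 was found in the 4 IGF2BP3 and both IGF2BP1 libraries. KNG1 (kininogen, the source of bradykinin) had 1 CDS cluster in the same 6 libraries, at chr3:186725192-186725230, and none in the other 6. F2 (prothrombin) had 12 clusters in 8 libraries, all intronic. PLG (plasminogen), PROS1 (protein S) and PROC (protein C) had 1 intronic cluster each, PROS1's with a multi-copy centre.

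Of the complement and inter-alpha-trypsin inhibitor genes, C3 and ITIH2 had reader clusters mainly in coding sequence and writer clusters mainly in introns, where 54.7% of writer clusters lay over all protein-coding genes. C3, the central complement component, had 3 and 4 exonic clusters for IGF2BP1, 0 and 0 for IGF2BP2, 2 and 2 for IGF2BP3, 5 and 4 for bio2, 1 and 0 for METTL1, and 0 and 1 for WDR4. Its 10 intronic clusters were 1 from a reader library and 9 from writer libraries, but only 3 of the 9 had a single-copy centre and the rest cannot be placed with certainty. One C3 site of 4 clusters, outside the CDS, lies in a lncRNA on the same strand and is uncertain.

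ITIH2, a heavy chain that stabilises hyaluronan matrices, had 1 and 2 exonic clusters for IGF2BP1, 0 and 1 for IGF2BP2, 1 and 2 for IGF2BP3, 4 and 3 for bio2, 0 and 0 for METTL1, and 1 and 0 for WDR4. Its CDS site shown above (chr10:7731856-7731925, exon 13 of 21) was in 7 reader libraries and no writer library. Its 8 intronic clusters were 1 from a reader and 7 from writer libraries, of which 4 were single-copy. ITIH3 had 2 clusters, both bio2, and AHSG (fetuin-A, an inhibitor of mineralisation) 7 exonic clusters in 6 libraries.

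Apolipoproteins, the protein coats of lipoprotein particles, carried few exonic clusters in number, although 5 of the 6 genes had one. Their canonical transcripts run from 474 to 1174 nt, against a median of 2885 nt over all protein-coding genes. APOA1, APOA2 and APOE had 1 cluster each and APOC3 had 3. APOH (beta-2-glycoprotein I, a phospholipid-binding protein) had 35 clusters, of which 31 were intronic. The listed apolipoproteins thus held 10 of the 461 exonic clusters of the 46 genes.

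FN1, VTN, GPC3 and SPP1 are matrix or cell-surface proteins, and FN1 (fibronectin) had the most clusters of all 46 genes, 101 in all. Its exonic clusters numbered 13 and 12 for IGF2BP1, 4 and 8 for IGF2BP2, 6 and 6 for IGF2BP3, 18 and 11 for bio2, 2 and 5 for METTL1, and 3 and 2 for WDR4. In contrast to TFPI and FGB, 70 clusters lay in the CDS, 16 in the 5' UTR and 4 in the 3' UTR. Per library and kb of canonical exons, FN1 had 0.894 exonic clusters. SERPINA1 had 1.75, SERPINA3 1.32, FGA 1.02 and ALB 0.985. The canonical FN1 transcript has 7431 nt of CDS and 693 nt of 3' UTR. The 5' UTR site shown above (chr2:215435904-215436004) was in 8 reader and 3 writer libraries, as was a CDS site in exon 9 of 46 (chr2:215423442-215423492). CDS sites in exon 14 (chr2:215410043-215410093) and exon 28 (chr2:215386759-215386809) were also in all 8 reader libraries, with 1 and 0 writer libraries.

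GPC3 (glypican-3, an oncofetal proteoglycan of liver tumours) had mostly intronic clusters, in a gene of 451356 nt with 2267 nt of canonical exons. Of its 99 clusters 86 were intronic, 11 lay in 1 site of the 3' UTR and 2 in the 5' UTR. The 3' UTR site (chrX:133535786-133535835) was found once in each library except IGF2BP2 replicate 1, so readers and writers shared it. Both 5' UTR clusters were from METTL1. VTN (vitronectin) had 6 clusters at 1 site of the 3' UTR, which overlaps another protein-coding gene on the same strand, ENSG00000273171. SPP1 (osteopontin) had 2 clusters, both bio2.

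**Figure D3:**
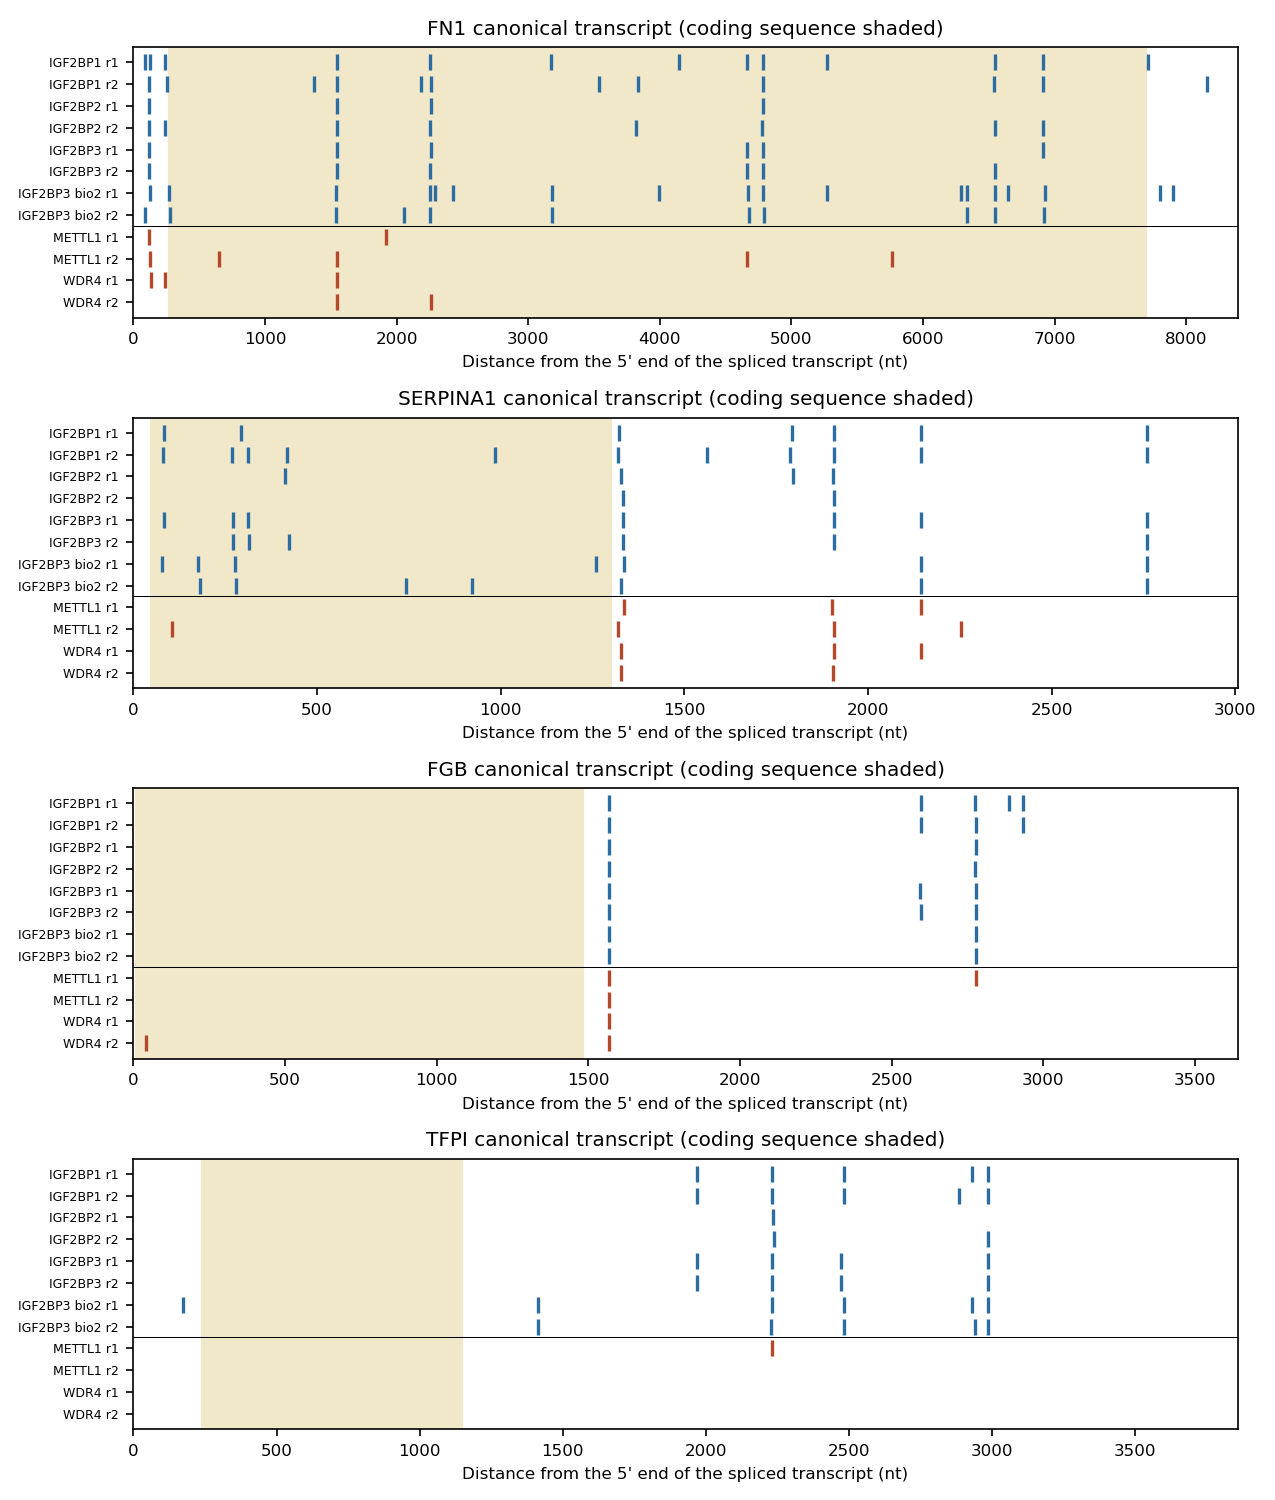
Midpoints of clusters on the spliced canonical transcript (x axis, nt from its 5' end) of FN1, SERPINA1, FGB and TFPI, by library (rows; blue for reader and red for writer libraries); shading marks the coding sequence. FN1 ticks spread over the CDS with recurrent columns, FGB and TFPI ticks lie in the 3' UTR apart from 1 tick each, and SERPINA1 has both; the columns in all 12 rows are the FGB site 86 nt and the SERPINA1 site 21 nt into the 3' UTR.

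Across the 46 genes the reader clusters leaned to coding sequence relative to other genes. In reader libraries 33.5% ± 6.63 (SD, n = 8) of the clusters in these genes lay in the CDS, against 17.9% ± 6.90 for all protein-coding genes. The 3' UTR share was 31.1% ± 5.01 against 54.6% ± 4.02, and the intronic share 29.1% ± 5.31 against 23.7% ± 3.69. In each of the 8 reader libraries the CDS share was higher and the 3' UTR share lower in the plasma protein genes. Without the bio2 libraries the CDS share was 30.1% ± 1.93 (SD, n = 6) against 14.4% ± 2.93.

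In writer libraries the shares lay closer to those of other genes. The CDS share was 13.2% ± 4.56 (SD, n = 4) against 9.42% ± 2.76, and the 3' UTR share 22.3% ± 4.88 against 29.5% ± 1.26. The intronic share was 55.4% ± 5.87 against 54.7% ± 5.01. The writer libraries differed in CDS share. WDR4 replicate 1 lay below all genes, at 7.84% against 8.51%, and METTL1 replicate 1 was nearly equal, at 11.4% in both. METTL1 replicate 2 lay above all genes, at 18.4% against 11.8%, and so did WDR4 replicate 2, at 15.0% against 5.92%. Each writer library had between 35 and 51 clusters in these genes.

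**Figure D4:**
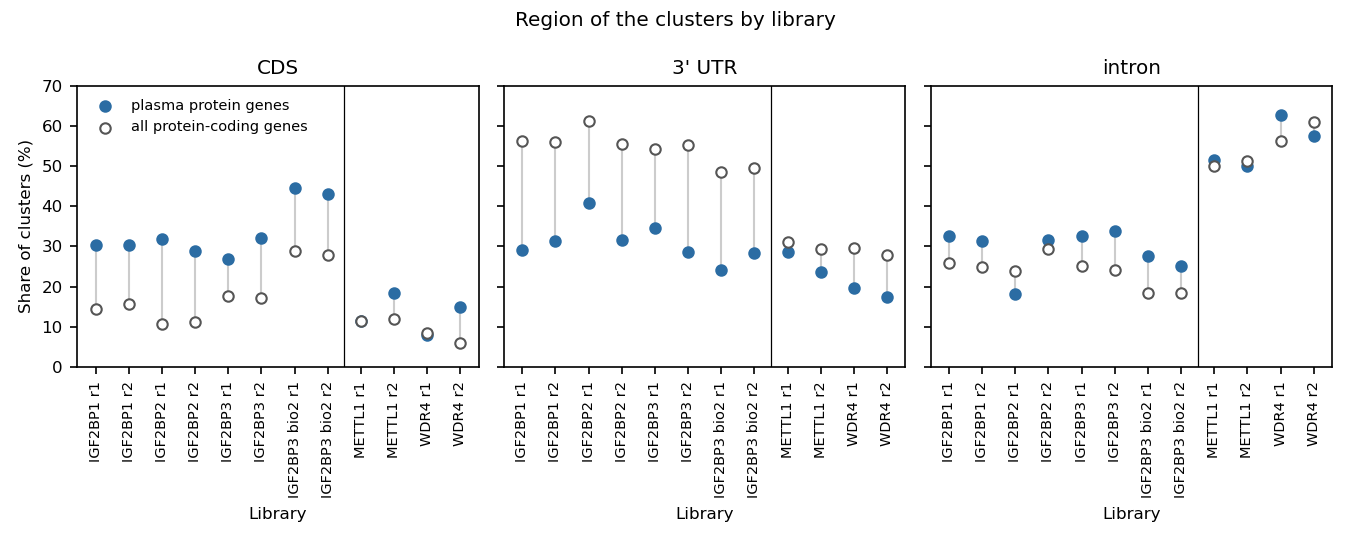
Percent of clusters in coding sequence, 3' UTR and introns (3 panels, y axis) in each library (x axis), for the 46 plasma protein genes (blue) and all protein-coding genes (open circles), joined by a line; the black line parts reader from writer libraries. In the 8 reader libraries blue lies above the open circle for CDS and below it for 3' UTR, and in the writer libraries the gaps are smaller.

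Plasma protein mRNAs have short 3' UTRs, and this moved with the region shares. The median canonical 3' UTR was 284.5 nt in the 46 genes and 991 nt in all protein-coding genes, while the median CDS was 1468.5 nt and 1263 nt. Summed over genes, 3' UTR made up 32.6% of CDS plus 3' UTR in the list and 50.1% in all genes. TF alone, with a canonical 3' UTR of 18024 nt, lifted that sum, and without it the share was 22.3%. Per 100 kb of canonical sequence and library there were 20.3 CDS clusters and 38.8 3' UTR clusters in the list, against 2.66 and 8.45 in all genes. Without TF the list had 20.2 and 66.4, so that the 3' UTR density was 3.29 times the CDS density, against 3.18 times in all genes and 1.91 times with TF. These clusters include some outside canonical exons, and with canonical transcripts alone the ratio without TF was 3.15, against 3.16 in all genes. Per length, 3' UTRs thus still held more clusters than CDS in both sets. The 29 genes with an exonic cluster had a median 3' UTR of 391 nt and the 17 without one 154 nt. F10, at 15 nt, and CFB, at 57 nt, were among the 10 genes without any cluster, but so were FETUB with 513 nt and ITIH4 with 462 nt. The part of length in the shares was not tested.

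Merged over libraries, the 46 genes had 146 exonic sites. Of these 62.3% were found in at least 2 libraries, against 55.1% of the exonic sites of all protein-coding genes, and 10.3% in at least 8 libraries against 6.99%. Reader libraries alone accounted for 99 sites (67.8% against 59.3%), writer libraries alone for 19 of 146 (20.5% over all genes) and both for 28 (19.2% against 20.2%). Without the bio2 libraries 104 sites were left, 57.7% of them in at least 2 libraries (54.2% over all genes), and reader libraries alone accounted for 54.8%, near the 54.5% of all genes. With all 12 libraries, 60 of the 78 CDS sites were in reader libraries alone (76.9% against 62.6% over all genes) and 9 were shared (11.5% against 14.7%). Bio2 libraries alone held 30 of the 78 (38.5% against 19.8%). Of the 51 3' UTR sites 33 were in reader libraries alone, a share of 64.7% near the 62.1% of all genes, and 13 were shared (25.5% against 23.0%). The exonic sites were seldom repeated sequence: 8.90% had a centre with several copies in the genome, against 26.8% over all genes.

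Intronic sites numbered 137, of which 34.3% recurred in at least 2 libraries (26.4% over all genes) and 35.8% had a multi-copy centre (51.7% over all genes). GPC3 alone had 42, spread over a gene with a median distance of 36546.5 nt from a site to the nearest canonical exon. They were found in every library, with 11 and 15 intronic clusters for IGF2BP1, 2 and 5 for IGF2BP2, 7 and 8 for IGF2BP3, 12 and 6 for bio2, 3 and 4 for METTL1, and 6 and 7 for WDR4. The GPC3 intron site at chrX:133938254-133938304, single-copy, was found in 7 reader libraries and no writer library. A GPC3 intron site found in 7 libraries, at chrX:133915425-133915482, had a centre with 144906 copies and cannot be placed with certainty.

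Intronic sites of TF, TFPI and F2 were mainly single-copy in readers. TF had 22 intronic clusters in reader libraries, 19 of them single-copy, and 4 in writer libraries. The TF site at chr3:133762923-133762951 was found in 6 reader libraries. TFPI had 14 intronic reader clusters and 9 writer clusters, including a site at chr2:187542113-187542170 shared by 4 reader and 3 writer libraries. F2 had a site in 5 reader libraries at chr11:46733220-46733277. In APOH the most widely shared intronic site (chr17:66222085-66222168), in 9 libraries, had a centre of 17 copies, and a single-copy site (chr17:66223298-66223325) was in 7 reader libraries and 1 writer library. Over the 46 genes, 135 of 164 intronic reader clusters and 44 of 92 intronic writer clusters were single-copy.

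The share of a library's clusters that fell in these genes asked whether plasma protein transcripts took more of the reader or the writer signal. Out of the clusters in protein-coding genes it was 0.791% (95% Wilson confidence interval 0.641 to 0.975) and 0.834% (0.685 to 1.01) for IGF2BP1, and 0.692% (0.457 to 1.04) and 0.724% (0.528 to 0.992) for IGF2BP2. IGF2BP3 had 1.06% (0.808 to 1.39) and 1.10% (0.848 to 1.43), and bio2 2.40% (2.00 to 2.88) and 2.07% (1.68 to 2.54). METTL1 had 0.830% (0.597 to 1.15) and 0.667% (0.486 to 0.914), and WDR4 0.806% (0.613 to 1.06) and 0.707% (0.520 to 0.961). The bio2 libraries were thus the 2 highest, and their intervals did not meet those of any other library. The mean was 1.21% ± 0.656 (SD, n = 8) in readers and 0.752% ± 0.0778 (SD, n = 4) in writers, and 0.866% ± 0.173 (SD, n = 6) in readers without bio2. These intervals cover counting error only.

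Bio2 libraries added sites of their own. Of the 146 exonic sites 42 (28.8%) were seen in bio2 libraries alone, against 10.6% of the exonic sites of all genes, and 30 of these 42 lay in coding sequence. Genes with an exonic cluster numbered 24 and 25 in the bio2 libraries (52.2% and 54.3%, against 12.5% and 11.9% of all genes) and 14 in both other IGF2BP3 libraries (30.4%, against 11.9% and 12.1%). The corresponding numbers were 20 and 21 for IGF2BP1 (against 18.6% and 19.9% of all genes) and 11 and 13 for IGF2BP2 (7.65% and 10.6%). They were 12 and 11 for METTL1 (7.74% and 9.53%) and 12 and 11 for WDR4 (9.47% and 8.10%). The label held IGF2BP3 libraries alone, so what it marks and the protein's own variation cannot be told apart.

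Per gene, readers and writers were compared by clusters per 10000 protein-coding-gene clusters of a library, for the 5398 genes with a cluster in at least 3 libraries, 25 of them in the list. No gene passed the threshold after Benjamini-Hochberg adjustment of the exact permutation test over 495 splits (percent called 0). The smallest adjusted p was 0.0606. At an unadjusted p under 0.05 were 1084 genes (20.1%), and 5 of the 25 plasma protein genes, a share at the background. The 5 were RBP4, FGB, FGG, FN1 and KNG1, all higher in readers, where 9.56% of all genes tested were called in that direction.

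RBP4 had between 0.842 and 3.14 clusters per 10000 in the reader libraries and 0 in each writer library. The groups did not overlap, which held for 2 of the 25 genes (RBP4 and FN1) and for 2.50% of all genes tested, while no listed gene was higher in every writer library than in every reader library (1.95% of all genes). The mean of RBP4 was 1.91 ± 0.747 (SD, n = 8) against 0 (exact permutation test, unadjusted p = 0.00202, adjusted p = 0.0606). This p is the smallest the design can give, and each RBP4 value is 1 cluster divided by the library's total. RBP4 and KNG1 passed the filter of 3 libraries through reader libraries alone, so their differences are a description. With no filter the adjusted p of RBP4 in the exact permutation test was 0.0998.

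FN1 had 12.9 and 10.9 clusters per 10000 for IGF2BP1, 12.6 and 15.2 for IGF2BP2, 16.3 and 13.8 for IGF2BP3, 45.0 and 25.9 for bio2, 4.74 and 10.5 for METTL1, and 6.32 and 5.30 for WDR4. The lowest reader library lay just above the highest writer library. Readers averaged 19.1 ± 11.4 (SD, n = 8) and writers 6.72 ± 2.62 (SD, n = 4), and the means lay 12.3 apart (exact permutation test, unadjusted p = 0.0444, adjusted p = 0.241). Without the bio2 libraries the difference was 6.89 (exact permutation test, adjusted p = 0.0903).

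FGB and FGG were higher in readers on average but their libraries overlapped. For FGB the means were 4.88 ± 1.10 and 2.90 ± 1.51 (SD, n = 8 and 4), with adjusted p = 0.206 in the exact permutation test. For FGG they were 3.42 ± 2.26 and 0.881 ± 1.02 (adjusted p = 0.241, same exact test). FGA, with 6.35 ± 5.85 against 0.593 ± 1.19, had a larger difference, 5.75, which fell to 2.63 without the bio2 libraries (exact permutation test, adjusted p = 0.321 with them and 0.123 without). TFPI and GPC3 also moved, their differences of 5.71 and 3.17 over all clusters falling to 1.77 and 0.803 without the bio2 libraries.

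With exonic clusters alone, 3768 genes and 24 of the list were tested and again none passed after adjustment (percent called 0). At an unadjusted p under 0.05 were 21.3% of all genes and 7 of the 24 (29.2%), the former 5 with SERPINA1 and TFPI, all higher in readers, a direction in which 18.5% of all genes were called. TFPI had 7.05 ± 3.73 exonic clusters per 10000 in readers and 0.593 ± 1.19 in writers (SD, n = 8 and 4, exact permutation test, unadjusted p = 0.0101, adjusted p = 0.136). Its groups did not overlap, as for FN1 and RBP4 (3 of 24 genes, against 5.18% of all). The reverse held for none of the 24 and for 0.425% of all genes. GPC3, C3 and ITIH2 turned over between the scales. GPC3 was higher in readers by 3.17 over all clusters and lower by -1.38 over exonic ones. C3 changed from -1.09 to 3.25 and ITIH2 from -0.325 to 2.87, and none of these had an adjusted p under 0.05.

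Over the 25 genes tested the median difference was 1.58 clusters per 10000 towards readers, with 18 of 25 higher in readers, while over all genes tested it was 0.165 with 55.2% higher. Over exonic clusters it was 1.42 with 20 of 24 higher, against 0.743 with 76.1% higher. Without the bio2 libraries the medians were 0.552 over all clusters (16 of 23 genes higher, against 0.199 and 56.0% over all genes) and 1.34 over exonic ones (14 of 20 higher, against 0.846 and 76.2%). These medians describe genes that passed the filter and support nothing about the list. When limma was fitted to log2(clusters per 10000 + 0.5), 558 genes were called (10.3%), 242 of them higher in readers (4.48%). The list then had 3 called genes, all higher in readers: FGA by 2.77 on that log2 scale (limma adjusted p = 0.0101), RBP4 by 2.20 (adjusted p = 0.0221) and FN1 by 1.34 (adjusted p = 0.0232). The call therefore depended on the test. RBP4 passed the filter through reader libraries alone and had no cluster in any writer library, so its limma call is a description. FGA had a cluster in 1 writer library. The fit had no term for the protein, so libraries of the same protein counted as separate units. Nothing in the labels ties a library to a separate culture beyond its replicate number, so p-values measure the spread between libraries, which may be partly technical.

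**Figure D5:**
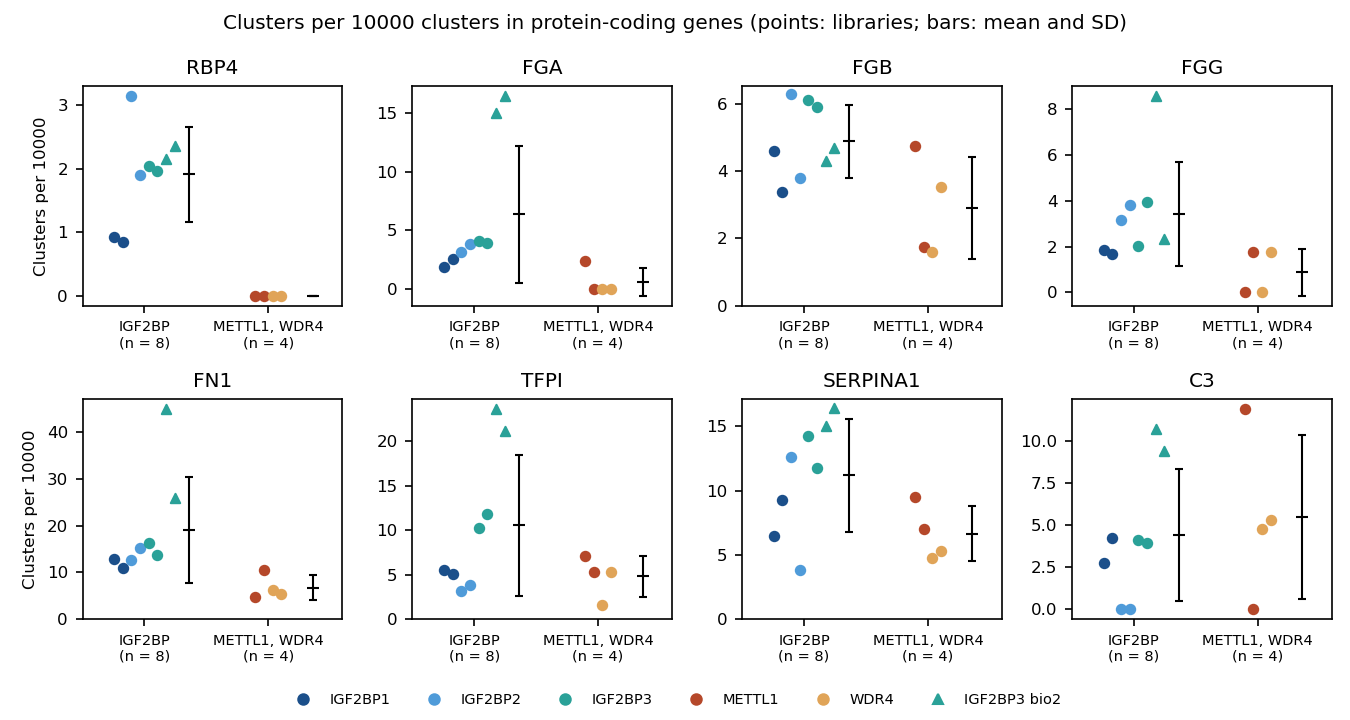
Clusters per 10000 clusters in protein-coding genes (y axis) for 8 genes, each point a library, coloured by protein with triangles for bio2; horizontal ticks and bars are the mean and SD of the 8 reader and 4 writer libraries. RBP4 is 0 in all writer libraries, FN1 ranges from 10.9 to 45.0 in readers and 4.74 to 10.5 in writers, and the bio2 triangles are the highest points for FGA, FN1, TFPI and SERPINA1.

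The short element CATA, CATC or CATT, sought on the transcript's strand in exonic clusters widened by 10 nt on both sides, was present in reader libraries in 65.9% ± 7.07 (SD, n = 8) of the windows of these genes, against 65.6% ± 10.6 for all protein-coding genes. The libraries went both ways: without bio2 the share was 64.2% ± 6.84 (SD, n = 6) against 61.4% ± 8.59, and in the bio2 libraries it was 66.7% and 75.8% against 77.9% and 78.6%. No test was run. In the writer libraries it was in 52.8% ± 0.179 (SD, n = 4) against 43.1% ± 2.97, from 17 to 19 exonic windows a library. The T content of the exonic reader clusters, without the added 10 nt, was 29.3% ± 1.06 against 30.2% ± 1.70. These are descriptions of letters, not of sites used by a protein.

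A further list of 50 plasma protein genes outside the 46, written with earlier results of these data known, served for comparison. Of these 25 of 50 had a cluster and 18 of 50 an exonic one, shares near the 44.4% and 31.0% of all protein-coding genes. The 5 broadest were APOB (the structural protein of low-density lipoprotein, 303 exonic clusters, 12 libraries), SERPINA5 (26 in 12), SERPIND1 (21 in 9), A2M (alpha-2-macroglobulin, 27 in 8) and CFI (8 in 8). APOB alone thus had 303 exonic clusters where the 46 genes together had 461.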

How the data were processed

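PAR-CLIP clusters of 5 RNA-binding proteins in HepG2 cells were analysed from 12 libraries. Per the authors' methods, reads were quality-filtered, clipped and collapsed, aligned with Bowtie (hg38, also named in the submitters' processing notes) and grouped into clusters by PARalyzer. Versions were not given in the sources used here. The deposited tables hold cluster positions and strand only, each library called separately, with no read number or score, so depth is unknown. Starts were read as 1-based, since G preceded the first base in 74.5% to 94.7% of clusters and RNase T1 cuts after G.

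Clusters were assigned by midpoint and strand to GENCODE release 44 genes, with regions taken in the order CDS, 3' UTR (with the stop codon), 5' UTR, other exon, intron. Copies are occurrences of the central 20 nt in hg38, with alternate and fix contigs left out. The number of clusters of a gene was divided by the library's clusters in protein-coding genes. Reader and writer libraries were grouped from the labels and compared, for genes with a cluster in at least 3 libraries, by an exact two-sided permutation test on the 495 ways to assign the 8 and 4 labels, with Benjamini-Hochberg adjustment over all genes tested and a threshold of 0.05. The smallest unadjusted p this design allows is 0.00202. limma 3.58.1 in R 4.3.3 was an alternative, as were exonic clusters alone, other denominators and filters, single-copy clusters, any overlap, 3' UTR before CDS, canonical transcripts alone, the other reading of starts, the protein as the unit, and leaving out libraries. Scripts used Python 3.11.15, numpy 2.4.6, scipy 1.17.1 and pandas 2.3.3, and the tests were checked on simulated data. Named genes were those with an exonic cluster in the most libraries, ties broken by cluster number, and others were named to account for every listed gene. The genes and lists were chosen with earlier results of these data known.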

Additional observations from a re-analysis of the deposited data

Results flagged for a closer look

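Of 47 groups of 4 to 8 libraries examined for a library far from the rest, 4 had one. A chance rate of about 1 in 20 holds for independent groups of normally spread values. These groups share libraries and many rates rest on few clusters, so that rate does not apply here. IGF2BP3 bio2 replicate 1 stood above the other IGF2BP libraries for FN1, with 45.0 clusters per 10000, and for FGG, with 8.57. It also stood above the other IGF2BP3 libraries for GPC3, with 27.9. METTL1 replicate 1 was the writer library with an FGA cluster, at 2.37 per 10000, where the other 3 were at 0. It had 1 such cluster, and with the other 3 at 0 this flag was fixed in advance. The part of the bio2 label in the first 3 was not tested.

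Clusters on alternate contigs of hg38 entered no count of genes or sites above. The copy counts also left these contigs out, so a sequence repeated there alone counted as single-copy. SERPINA1 had 69 such clusters in 12 libraries, of which 63 matched a site on chromosome 14, beside 65 clusters on the chromosome itself. SERPINF2 had 8 in 6 libraries, of which 6 matched a site on chromosome 17.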

How the results depend on the processing

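Cluster presence in the list moved little. When 1 library was left out, 32 to 36 listed genes held a cluster and 28 to 29 an exonic one. With single-copy clusters these were 34 and 29. The matching counts over all protein-coding genes were not made. Without bio2, an alternative added after seeing the data, genes with a reproducible IGF2BP3 site went from 24 to 14, and genes with exonic clusters in at least 8 libraries from 12 to 7. The bar of 8 was kept for the 10 libraries left, so part of the second drop was fixed by the bar. No gene passed the adjusted exact permutation test under any of its alternatives, while limma called 558 genes and 3 of the list. The writers' share of clusters in these genes was 0.481% out of all clusters and 0.837% with single-copy clusters, which also moved the writers' CDS share to 18.4% and their intronic share to 42.7%. The cause was not tested. Directions turned for exonic clusters alone in GPC3 (-1.38), C3 (3.25) and ITIH2 (2.87), for whole-library denominators in ITIH2 (0.0939), without bio2 in ALB (-0.295) and with single-copy clusters in C3 (1.92) and ITIH2 (1.15). Leaving out 1 library gave -0.405 to 1.12 for SERPINA3, with values below 0 without IGF2BP1 replicate 1 (-0.0895), METTL1 replicate 1 (-0.200) or METTL1 replicate 2. It gave -2.91 to 1.04 for C3, above 0 without METTL1 replicate 1 alone, and -1.07 to 0.156 for ITIH2, above 0 without 4 libraries in turn. All these are differences in clusters per 10000, readers minus writers. Taking the replicate number as a block called 0 genes, with 952 genes and 2 listed genes at an unadjusted p under 0.05. For each pair of same-labelled libraries, the rates of replicate 2 were subtracted from those of replicate 1, gene by gene. The 15 correlations of these differences between labels ran from -0.0450 to 0.0415, so the numbers gave no sign of pairing libraries across labels. With the protein as the unit no gene was called, and the smallest p that design allows is 0.1. Cluster calls carry no read depth, no input library was analysed, and the number of libraries limits the precision.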
